A study of Homo sapiens with 16 samples.

Results

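NR1D1 and NR1D2 are the human genes for the nuclear receptors REV-ERBα and REV-ERBβ. All BMAL1 and Myc chromatin immunoprecipitation peaks that overlapped either gene body, or 10 kb to either side of it, by at least 1 bp were taken from 13 peak lists. This gave 99 peaks of 58586, which merged into 13 separate sites of 22071 in the whole series. NR1D1 (gene ID 9572, chr17:40092793-40100589 in hg38, minus strand) had 60 peaks in 8 sites. NR1D2 (gene ID 9975, chr3:23945286-23980617, plus strand) had 39 peaks in 5 sites.

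BMAL1 pairs with CLOCK to activate genes that carry E-boxes, and NR1D1 and NR1D2 are among the best known of them. Their proteins bind heme, recruit the NCOR1 and HDAC3 corepressors and shut off BMAL1 itself, which closes a feedback loop of the circadian clock. CHRONO, encoded by CIART, represses BMAL1 and CLOCK.

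The libraries came from U2OS-CHRONO, labelled U2OS_CHR, and from U2OS, labelled U2OS_WT, a human osteosarcoma cell line. How U2OS-CHRONO was made is not given in the sources used here. BMAL1 was precipitated from both lines at 0, 4, 8, 12, 16 and 20 h, after 200 nM dexamethasone, which aligns the clocks of a culture, with 0 h placed 4 h ahead of the low point of a luciferase reporter driven by the BMAL1 promoter. One further library of U2OS-CHRONO was precipitated with a Myc antibody, has no label for treatment or time, and is described by the series as targeting Myc-CHRONO. Each line and time had 1 library, as had Myc. The 6 times therefore served as pairs, and p-values measure the spread over times and not over separate cultures. The lists held 5612, 8240, 2429, 3919, 9391 and 6873 peaks for U2OS-CHRONO from 0 to 20 h, against 3397, 5287, 337, 1808, 2794 and 6012 for U2OS, and 2487 for Myc. Every U2OS-CHRONO list was longer than the U2OS list of the same time. Read depth is unknown, so the part of depth or enrichment in that difference cannot be told apart from binding.

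The promoters are shown because the bases covered by peaks of all 13 lists enclosed 1 of them at each gene. The RefSeq windows of GRCh38.p14 run from 250 bp before to 50 bp after a start, 5′ to 3′ on the gene's strand. Capitals mark an E-box (CACGTG), an E-prime box (CACGTT) or a D-box (TTATGTAA), each searched on both strands.
NR1D1 promoter, chr17:40100540-40100839, minus strand: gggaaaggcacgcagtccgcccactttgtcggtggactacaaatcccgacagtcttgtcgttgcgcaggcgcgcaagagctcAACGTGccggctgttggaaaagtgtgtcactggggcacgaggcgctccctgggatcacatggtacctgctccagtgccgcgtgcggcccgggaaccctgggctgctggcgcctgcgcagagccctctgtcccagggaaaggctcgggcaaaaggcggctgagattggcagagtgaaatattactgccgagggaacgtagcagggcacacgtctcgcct
NR1D2 promoter at the outer start, chr3:23945036-23945335, plus strand: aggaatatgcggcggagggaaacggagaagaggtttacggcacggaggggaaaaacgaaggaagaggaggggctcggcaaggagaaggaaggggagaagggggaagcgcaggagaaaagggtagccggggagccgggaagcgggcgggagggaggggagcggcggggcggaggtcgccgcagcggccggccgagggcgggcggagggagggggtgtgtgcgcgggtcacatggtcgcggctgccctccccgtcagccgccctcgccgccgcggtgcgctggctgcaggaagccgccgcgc
NR1D2 promoter at the inner start, chr3:23945871-23946170, plus strand: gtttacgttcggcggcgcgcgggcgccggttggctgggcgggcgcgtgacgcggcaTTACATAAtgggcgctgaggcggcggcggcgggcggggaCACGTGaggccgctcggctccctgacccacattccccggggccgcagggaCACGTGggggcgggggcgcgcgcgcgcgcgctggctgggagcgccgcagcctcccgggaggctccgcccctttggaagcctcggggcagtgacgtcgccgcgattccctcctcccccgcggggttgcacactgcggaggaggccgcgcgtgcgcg

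The inner NR1D2 promoter held 2 E-boxes, beginning at -155 and -105 bp from the start, and a D-box at -194. The D-box is the element read by DBP, TEF and NFIL3. The outer NR1D2 promoter held none of these motifs. The NR1D1 promoter held no E-box, and 1 E-prime box at -168. AGGTCA, the core letters bound by REV-ERB and ROR receptors, was in none of the 3 windows. Of 35116 promoter windows in the same table, 7.26% held an E-box, 0.664% held 2 or more, 5.34% held an E-prime box, 0.886% a D-box and 13.8% AGGTCA. These matches are descriptions of letters and not mapped binding sites. All 13 lists had a peak that contained the whole NR1D1 window, and likewise the inner NR1D2 window. The outer NR1D2 window was overlapped by peaks of 10 lists and contained by a peak in 4.

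Both genes had a BMAL1 peak in all 12 BMAL1 libraries, as had 1.01% of 20037 protein-coding genes. Both also had a Myc peak, as had 11.2% of those genes. The bases that every list covered lay differently at the 2 genes. NR1D1 had 4 such segments. One, of 565 bp at chr17:40098928-40099492, lay inside the gene, 1097 to 1661 bp downstream of its start. The promoter segment of 553 bp, at chr17:40100448-40101000, ran from -411 to 141 bp about the start. A sliver of 39 bp, at chr17:40101195-40101233, lay just beyond it, between -644 and -606. The upstream segment of 401 bp, at chr17:40108156-40108556, lay between -7967 and -7567. NR1D2 had 1 segment of 396 bp, at chr3:23945780-23946175, 494 to 889 bp inside the outer start and around the inner one. Whether these bases are exonic or intronic was not analysed here.

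Such segments were rare. Over the genome there were 132, with a median length of 222 bp, and 0.649% of protein-coding genes had 1 or more in the body or within 10 kb. Only 5 genes had 3 or more (0.025%), and NR1D1 was one of them. The others were DBP, a D-box activator, its neighbours SPHK2 and CA11, and THRA, the thyroid hormone receptor alpha gene next to NR1D1. THRA counted 4 segments, of which 3 were those of NR1D1, so these genes are not independent. At NR1D2 the body of the gene NKIRAS1 reaches into the main site and ends inside it, at chr3:23946562. The peaks there cannot be assigned to 1 of the 2 genes by position.

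**Figure D1:**
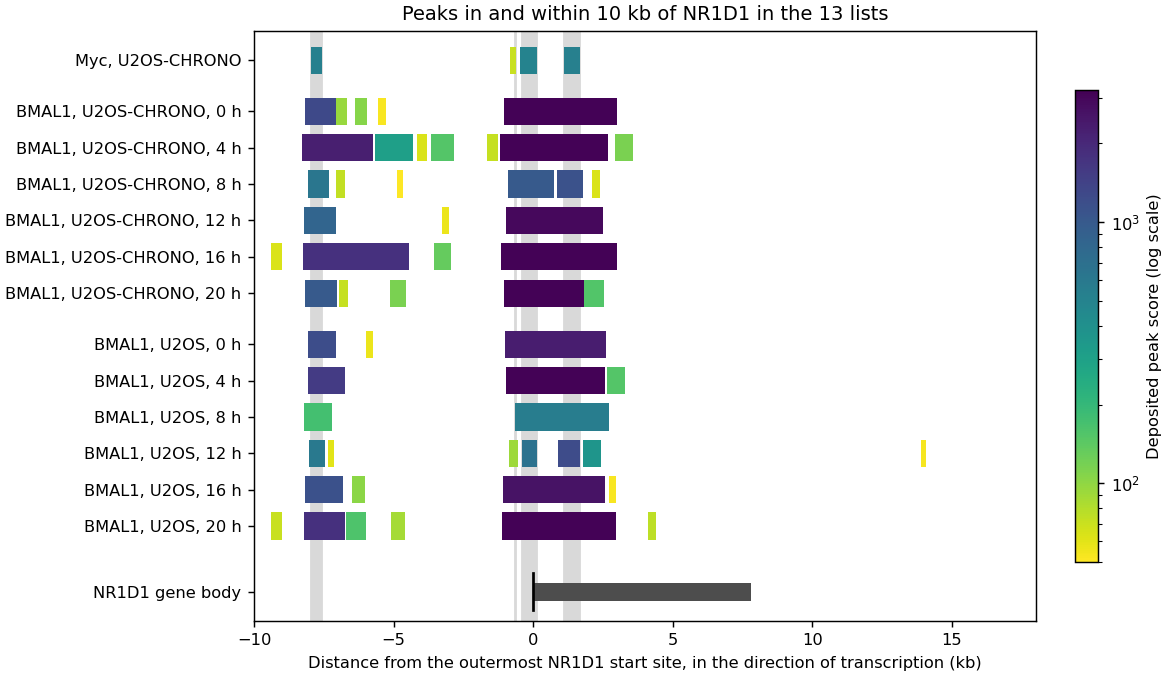
Peaks at NR1D1, by distance from the start site in kb, with 1 row per library and the colour giving the deposited score on a log scale. Grey bands mark the 4 segments covered in all 13 lists, at the promoter, just beyond it, inside the gene and between -7967 and -7567 bp.

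NR1D1 had its best-scoring BMAL1 peaks in a site over the promoter and the 5′ part of the body, chr17:40097017-40101793. Scores are the authors' own, of unstated definition, and are used here to order peaks within a list. The best peak there scored 3100, 3100, 1127.64, 2931.88, 3100 and 3100 in U2OS-CHRONO from 0 to 20 h, against 2282.12, 3100, 561.39, 1246.65, 2624.59 and 3100 in U2OS. In its own list that peak ranked 1, 3, 1, 1, 1 and 1 in U2OS-CHRONO, against 4, 4, 4, 4, 3 and 2 in U2OS. Tied scores took their mean rank: at 4 h in U2OS-CHRONO, and at 4 and 20 h in U2OS, 3 peaks of the list shared the score of 3100. The NR1D1 peak was thus the sole top peak of the list at 5 of the 6 U2OS-CHRONO times. In U2OS it shared the top score at 20 h and was below the top at the other times. The exact value of 3100 recurred in 6 lists and may be a ceiling of the score. Scores above it occurred only at 4 h, up to 3194.23 in U2OS-CHRONO and 3200.23 in U2OS. The order of peaks at or near 3100, and ranks resting on it, may therefore not reflect signal.

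Since ranks in lists of unequal length do not compare, the ranks were taken again among the 167 merged regions called in all 12 BMAL1 libraries (0.796% of 20968 BMAL1 regions). NR1D1 had the same ranks in this fixed set. Its rank averaged 1.33 ± 0.816 in U2OS-CHRONO and 3.5 ± 0.837 in U2OS (SD over n = 6 times each), where 1 is the highest score. The rank number was lower in U2OS-CHRONO at 6 of 6 times, by 2.17 ± 0.983 on average (difference -2.17). A two-sided exact permutation over paired times returned p = 0.031, which no 6 pairs can go below. The adjusted p over the 6 tests of the REV-ERB genes was 0.19, so the difference did not pass. A test at that smallest p cannot pass alone among 6, so no conclusion on the difference is drawn from the adjusted p. An unadjusted p under 0.05 was given by 64 of the 167 shared regions (38.3%), in either direction, and by 0 after adjustment over all of them. The p at NR1D1 is to be read against that share. The smallest adjusted p of this permutation over all shared regions was 0.082. With 6 pairs it could fall under 0.05 only if far more regions had the smallest p, so the adjustment decides little here. With ties given their best rank, the difference was -2 and NR1D1 was ahead at 5 times and equal at 1 (exact permutation p = 0.0625).

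NR1D1 had at most 3 shared regions above it in any BMAL1 library. Among core clock genes, DBP ranked above it in 5 of 12 libraries, TEF, a relative of DBP, in 4, PER1, a repressor of BMAL1 and CLOCK, in 3, and BHLHE41, which competes for E-boxes, in 1. For DBP, TEF and PER1 all of these were U2OS libraries. For BHLHE41 it was U2OS-CHRONO at 4 h. The ranks of NR1D1 and NR1D2 over the 12 libraries had a Pearson r of -0.39, and those of NR1D1 and its own upstream site 0.31, as descriptions over libraries that share lines and times. The regions outside their windows with the most similar rank pattern, of 126 compared, were HYPK/SERF2/SERINC4 (r = 0.94), ADAMTS1 (0.80) and OSGIN1 (0.80) for NR1D1. For NR1D2 they were LOC100996598/TEF (0.67), RALGPS1 (0.63) and PARP10/SPATC1 (0.58). The NR1D1 ranks ran only between 1 and 4, which limits what its r can resolve.

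**Figure D2:**
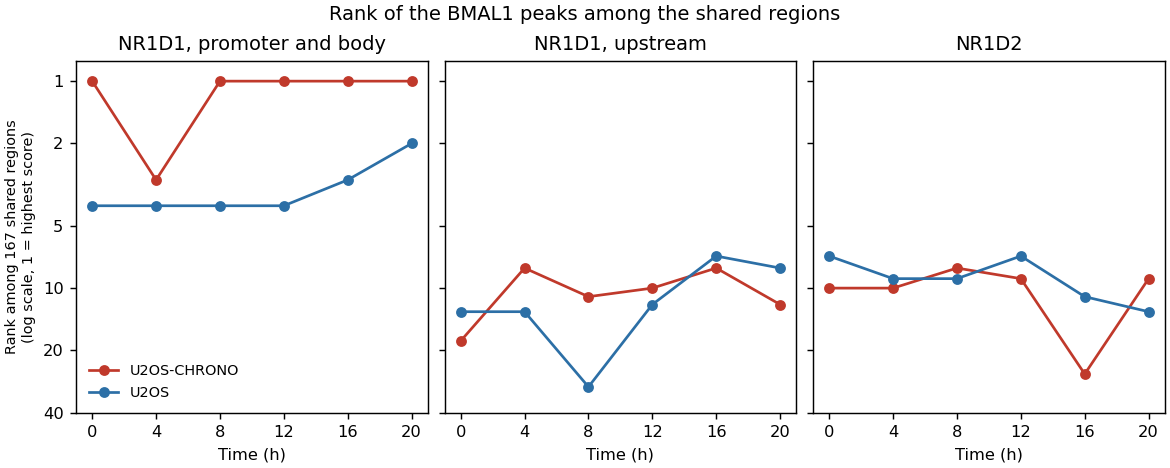
Rank of the best BMAL1 peak among the 167 shared regions by time in h, on a log axis with 1 at the top, for the NR1D1 promoter and body, the NR1D1 upstream site and NR1D2. Points are single libraries, with U2OS-CHRONO in red and U2OS in blue. With tied scores at their mean rank, the red line lies above the blue one at all 6 times in the left panel and crosses it in the others.

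Where the peak caller split the NR1D1 site between the gene body and the promoter, the intragenic peak scored above the promoter peak. In U2OS-CHRONO at 8 h the intragenic peak scored 1127.64 and the promoter peak 1005.07, at ranks 1 and 4 of that list. In U2OS at 12 h they scored 1246.65 and 671.35, at ranks 4 and 10. In U2OS at 0 h they scored 2282.12 and 2281.19, at ranks 4 and 5. In the other libraries, 5 of 6 of U2OS-CHRONO and 4 of 6 of U2OS, 1 peak spanned both, so the order could not be read there. The Myc library also held them apart, with the intragenic peak at rank 2 and the promoter peak at rank 4.

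The width of the best NR1D1 peak was 4059, 3894, 946, 3476, 4174 and 2852 bp in U2OS-CHRONO from 0 to 20 h, against 1797, 3546, 3361, 805, 3644 and 4076 bp in U2OS. The 3 narrowest peaks were those of the 3 BMAL1 libraries with the intragenic and promoter peaks apart. In some other libraries a smaller peak of the site lay beside the best one. In U2OS-CHRONO at 20 h a peak of 685 bp lay next to that of 2852 bp. The groups overlapped, with means of 3234 ± 1220 bp and 2872 ± 1278 bp (U2OS-CHRONO and U2OS, SD, n = 6 times each). The difference of 362 ± 1959 bp was within the spread (exact paired permutation p = 0.69, adjusted p = 1), and it turned to -18 bp without the 0 h pair and to -99.8 bp without the 12 h pair.

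The NR1D1 upstream site, chr17:40104896-40108893, was called in all 13 lists, the only site away from both promoters that was. Its best peak ranked 19, 8, 12, 10, 8 and 13 in the U2OS-CHRONO lists from 0 to 20 h, against 14, 13, 31, 13, 7 and 8 in the U2OS lists. It was thus among the 31 highest peaks of every list. Among the 167 shared regions it ranked 18, 8, 11, 10, 8 and 12 in U2OS-CHRONO, against 13, 13, 30, 12, 7 and 8 in U2OS. The lines overlapped, each being ahead at 3 times. The mean difference was -2.67 ± 8.82 (exact paired permutation p = 0.66, adjusted p = 1 over 8 tests, of which the 2 at this site were added after seeing the data), and without the 8 h pair it was 0.6.

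The centre of the best upstream NR1D1 peak lay between -7688 and -6362 bp in U2OS-CHRONO and between -7759 and -7415 bp in U2OS. Widths were 1119, 2553, 738, 1173, 3785 and 1149 bp in U2OS-CHRONO, against 1004, 1323, 1011, 564, 1366 and 1496 bp in U2OS. The peaks of 4 and 16 h in U2OS-CHRONO were the widest and extended towards the gene. The mean difference of 625.5 ± 1058 bp did not exceed the spread (exact paired permutation p = 0.25). It was 26 bp where peak centres had to lie within 500 bp of the site's median centre, which left 4 pairs, without 4 and 16 h.

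Between the main site and the upstream segment lie 6362 bp, where peak cover varied between libraries. These bases hold most of the upstream site, so wide upstream peaks count as cover, as at 4 and 16 h in U2OS-CHRONO. The Myc peaks at either edge fall outside these bases by construction. The share of these bases under a peak was 25.5, 74.3, 12.5, 12.1, 58.6 and 22.3% in U2OS-CHRONO from 0 to 20 h, against 11.8, 12.8, 5.69, 4.39, 19.1 and 32.5% in U2OS, and 0% for Myc. U2OS-CHRONO had the higher cover at 5 of 6 times, and its peak lists were longer at all 6, whose part in this was not tested. A site in this interval, chr17:40103426-40104247, was called at 4, 12 and 16 h in U2OS-CHRONO and at no time in U2OS. Its scores were 152.36, 56.78 and 133.28. Of all 20968 BMAL1 regions, 6.52% had a peak at 3 or more U2OS-CHRONO times and at no U2OS time. With lists cut to equal length at each time, or with scores of at least 100, this site remained at 2 U2OS-CHRONO times.

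The other 5 NR1D1 sites were weak. The site at chr17:40109599-40109977 was called in U2OS-CHRONO at 16 h and in U2OS at 20 h, with scores of 63.28 and 71.06. Single libraries gave chr17:40101843-40102236 and chr17:40104411-40104750 (U2OS-CHRONO at 4 h, scores 71.74 and 63.41), chr17:40096191-40096483 (U2OS at 20 h, 75.39) and chr17:40086514-40086695 (U2OS at 12 h, 52.72). The last of these lies in the body of THRA. None of the 5 had a score of 100 or more. Just outside the 10 kb limit, within a further 2 kb upstream of NR1D1, 8 lists had peaks (3 U2OS-CHRONO, 4 U2OS and Myc) with scores of 65.18 to 207.71. No list had one within 2 kb outside the NR1D2 limits.

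**Figure D3:**
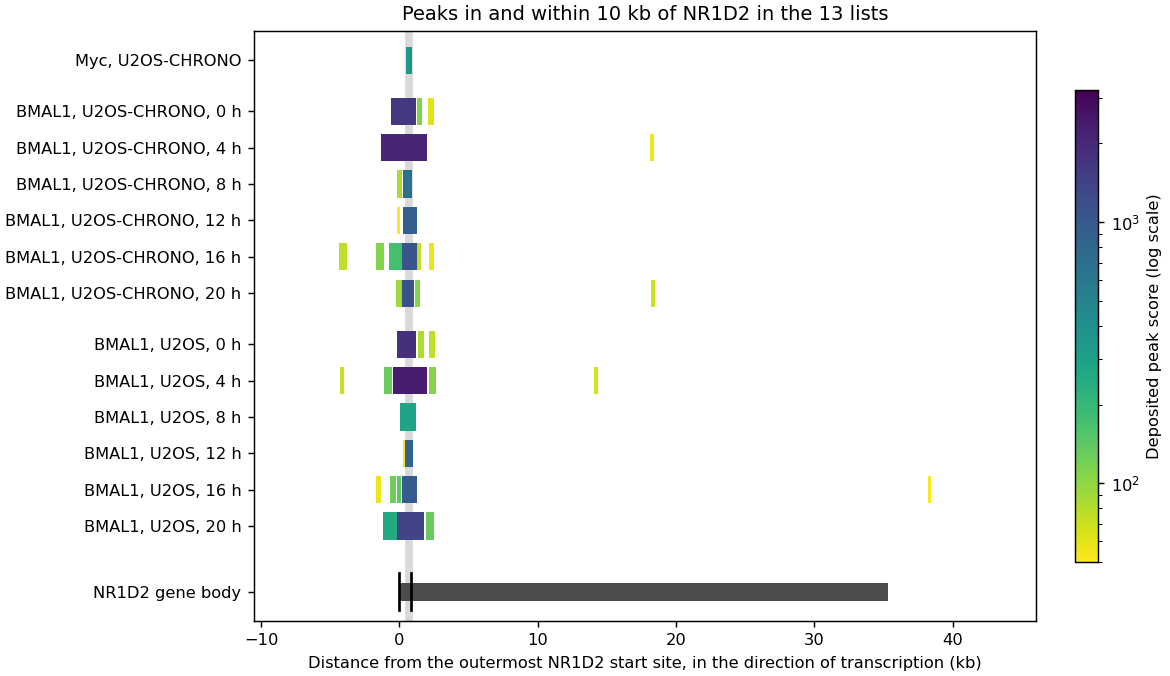
Peaks at NR1D2, by distance from the outer start site in kb, with 1 row per library and the colour giving the deposited score on a log scale. The grey band marks the segment of 396 bp covered in all 13 lists, and the black ticks on the gene body mark the 2 start sites.

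NR1D2 had 1 strong site, chr3:23943583-23947907, with 33 of its 39 peaks. The best peak scored 1630.78, 2042.52, 679, 912.87, 1082.08 and 1115.61 in U2OS-CHRONO from 0 to 20 h, against 1791.07, 2325.29, 287.08, 862.85, 991.47 and 1381.03 in U2OS. It ranked 10, 10, 9, 9, 32 and 9 in the U2OS-CHRONO lists, against 8, 9, 9, 7, 11 and 13 in the U2OS lists. Its ranks overlapped between the lines, and the library of U2OS-CHRONO at 16 h, the longest list, stood below the rest.

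Among the shared regions NR1D2 ranked 10, 10, 8, 9, 26 and 9 in U2OS-CHRONO, against 7, 9, 9, 7, 11 and 13 in U2OS. The means were 12 ± 6.90 and 9.33 ± 2.34 (U2OS-CHRONO and U2OS, SD, n = 6 times each). The difference of 2.67 ± 6.53 was within the spread (exact paired permutation p = 0.5, adjusted p = 1), and without the 16 h pair it was 0.2. NR1D1 ranked above NR1D2 in 12 of 12 libraries. The upstream NR1D1 peak and the NR1D2 peak lay close together in this order, with median ranks of 10.5 and 9.5 in U2OS-CHRONO and 12.5 and 9 in U2OS.

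The centre of the best NR1D2 peak lay 317.5 to 740 bp inside the outer start in U2OS-CHRONO (median 613) and 530.5 to 820 bp in U2OS (median 700). The Myc centre was at 712 bp. All 13 centres thus lay between the outer start and the inner one, whose promoter holds the 2 E-boxes shown above. Widths were 1798, 3348, 596, 997, 1022 and 831 bp in U2OS-CHRONO, against 1392, 2458, 1168, 556, 1096 and 1947 bp in U2OS. The means of 1432 ± 1022 bp and 1436 ± 674 bp (U2OS-CHRONO and U2OS, SD, n = 6 times each) differed by -4.17 ± 739 bp (exact paired permutation p = 1). In both lines the peak was widest at 4 h.

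The other 4 NR1D2 sites scored 75.6 or less. The site at chr3:23940944-23941471, upstream of the outer start, was called in U2OS-CHRONO at 16 h and U2OS at 4 h. The site at chr3:23963421-23963799, in the body, was called only in U2OS-CHRONO, at 4 and 20 h, and at 1 of these with equal list lengths. The U2OS-CHRONO lists were longer at these times. The share of all regions with this pattern is not given here, so nothing about the lines is read from it. Single U2OS libraries gave chr3:23959326-23959613 in the body (4 h) and chr3:23983470-23983747 beyond the 3′ end (16 h).

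**Figure D4:**
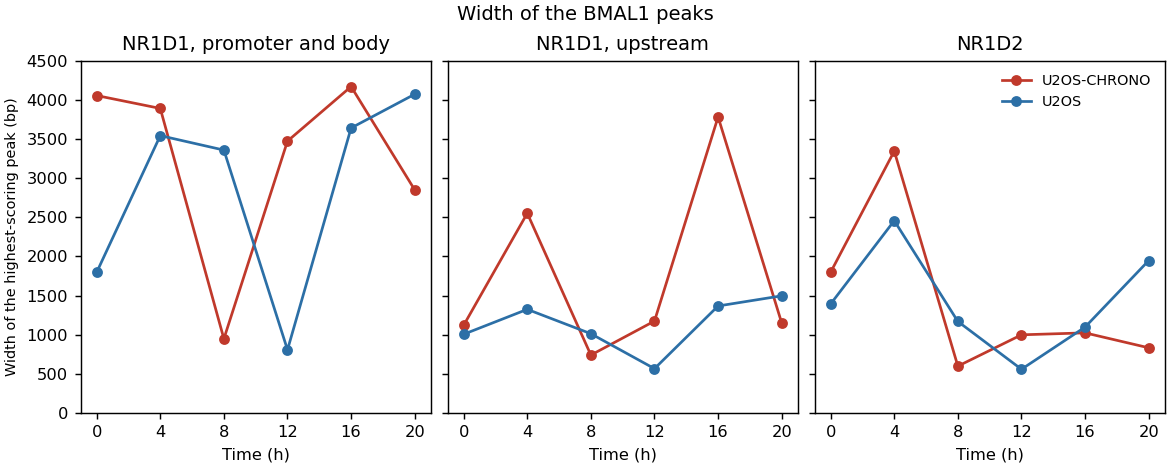
Width in bp of the best BMAL1 peak by time in h at the NR1D1 promoter and body, the NR1D1 upstream site and NR1D2, with U2OS-CHRONO in red and U2OS in blue. Points are single libraries. The lines cross at each site, and NR1D1 dips to 946 bp at 8 h in U2OS-CHRONO and to 805 bp at 12 h in U2OS.

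The number of peaks in the body and 10 kb did not separate the lines. At NR1D1 there were 5, 7, 6, 3, 4 and 5 in U2OS-CHRONO from 0 to 20 h, against 4, 3, 2, 7, 4 and 6 in U2OS, and 4 for Myc. The difference was 0.667 ± 3.08 (exact paired permutation p = 0.81, adjusted p = 1). At NR1D2 there were 3, 2, 2, 2, 6 and 4 in U2OS-CHRONO, against 3, 5, 1, 2, 5 and 3 in U2OS, and 1 for Myc. The means were equal, at 3.17 ± 1.60 in each line (SD, n = 6 times each), with a difference of 0 ± 1.55 (exact paired permutation p = 1). With equal list sizes the NR1D2 means were 1.83 in U2OS-CHRONO and 3.17 in U2OS (exact paired permutation p = 0.25). The largest numbers at NR1D1, 7 in U2OS-CHRONO at 4 h and 7 in U2OS at 12 h, included peaks of low score or parts of the split site.

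The Myc list had 4 peaks at NR1D1 and 1 at NR1D2. At NR1D1 the intragenic peak (chr17:40098928-40099492, score 533.15), the upstream peak (chr17:40108156-40108556, 529.51) and the promoter peak (chr17:40100445-40101080, 501.12) ranked 2, 3 and 4 of 2487. The remaining peak, chr17:40101195-40101424, scored 70.39 and tied for rank 691.5. The NR1D2 peak, chr3:23945780-23946216, scored 354.26 and ranked 10. Each of the 5 Myc peaks was overlapped by BMAL1 peaks at 6 of 6 U2OS-CHRONO times and 6 of 6 U2OS times. The intragenic and upstream Myc peaks have the exact bounds of the segments covered in all lists, so at these Myc was the narrowest peak.

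Among the 118 regions called in all 13 lists, the NR1D1 upstream site ranked 2 for Myc, against 8 to 18 (median 10.5) for BMAL1 in U2OS-CHRONO and 7 to 29 (median 12.5) in U2OS. NR1D1 itself ranked 1 for Myc, against 1 to 3 for BMAL1 in U2OS-CHRONO and 2 to 4 in U2OS. NR1D2 ranked 8 for Myc, against 8 to 26 (median 9.5) and 7 to 13 (median 9) for BMAL1 in U2OS-CHRONO and U2OS. With 1 Myc library these differences have no replicate check, and no test was made.

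NR1D1 and NR1D2 belong to a clock list of 20 genes, of which 11 had a BMAL1 peak in the body or within 10 kb in all 12 libraries, against 1.01% of all protein-coding genes. The other 9 of these 11 were PER1, PER2, PER3, CRY1 and CRY2, which repress BMAL1 and CLOCK, the D-box activators DBP and TEF, and the E-box repressors BHLHE40 and BHLHE41. A Myc peak was present at 13 of the 20, against 11.2% of all protein-coding genes. Of 17 corepressors, regulators and targets of the REV-ERB proteins, 3 had a BMAL1 peak in all 12 libraries, against the same 1.01%, among them CRY1 and PPARGC1A, a metabolic coactivator. FBXW7, ALAS1 and RORB, which act in REV-ERB degradation, heme synthesis and competition for REV-ERB sites, had none. The median number of libraries with a peak was 12 in the clock list and 3 in the REV-ERB list, against 0 over all genes. BMAL1, the main REV-ERB target in the loop, had a peak at 2 U2OS-CHRONO times and 1 U2OS time. The corepressor gene NCOR1 had 0 and 1, and HDAC3 4 and 2, at U2OS-CHRONO and U2OS times.

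Set beside the other clock genes, NR1D1 had the lower rank number in U2OS-CHRONO at 6 of 6 times, and so did BHLHE40, at 4 to 15 in U2OS-CHRONO and 10 to 23 in U2OS. PER1, PER2, CRY1 and CRY2 had the higher rank number in U2OS-CHRONO at 6 of 6 times. An unadjusted p under 0.05, which 6 pairs give only when all go one way, was reached by 38.3% of the 167 shared regions. Nothing particular to these genes is therefore read from it. None passed after adjustment, but with 6 pairs that would have needed far more regions at the smallest p. PER1 ranked 4 to 12 in U2OS-CHRONO and 2 to 4 in U2OS. CRY1 ranked 100 to 157 in U2OS-CHRONO and 14 to 38 in U2OS, and CRY2 48 to 82 in U2OS-CHRONO and 6 to 22 in U2OS. NR1D2 was on the higher side at 4 times and on the lower side at 2. Ranks within a fixed set are relative, and a move of one region shifts others.

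**Figure D5:**
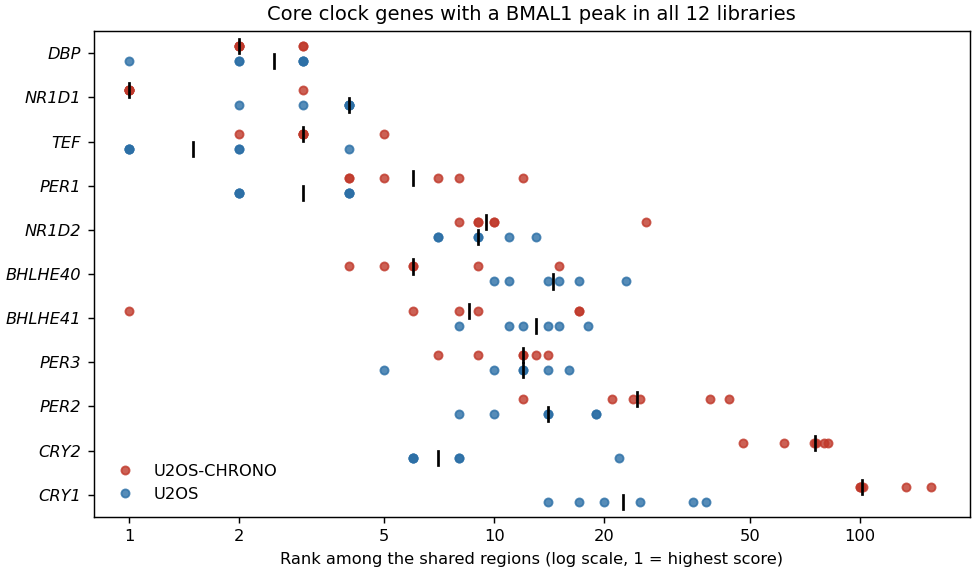
Rank among the 167 shared regions, on a log axis, of the 11 core clock genes with a BMAL1 peak in all 12 libraries. Points are single libraries (U2OS-CHRONO in red above U2OS in blue), black ticks are medians over 6 times, and genes are ordered by mean rank. NR1D1 lies at 1 to 3 in U2OS-CHRONO and 2 to 4 in U2OS, with CRY1 and CRY2 farthest apart between the lines.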

How the data were processed

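BMAL1 and Myc chromatin immunoprecipitation peaks were deposited as 13 lists, 1 per library, with chromosome, start, end and a score. The authors' score has no stated definition in the deposited lists, and its lowest value was 50. Per the submitters' processing notes, MACS 1.4.2, bedtools, HOMER 4.10.3 and hg38 were used; no source used here names the aligner or the depth. The 3 input libraries were not analysed here.

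Genes and promoters came from RefSeq tables (GRCh38). Overlapping peaks (at least 1 bp) were merged into sites. The best-scoring peak of each site was ranked among the 167 regions called in all 12 BMAL1 libraries, ties taking the mean rank. Lines were paired by the time labels and compared by two-sided exact sign-flip permutation over 6 times, with Benjamini-Hochberg adjustment over 6 tests, or 8 with the 2 on the upstream site, added after seeing the data. Counts over genes had no test.

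Named were both genes with every site, their neighbours, members of the 2 lists with a peak in all 12 BMAL1 libraries, and 3 regions per gene with the highest Pearson r. SPHK2, CA11 and the other list members in the text were named after their values were seen. Of the genes so named, 1 list member is not reported here. The members and lists were chosen with earlier results of these data known. Alternatives were scores of at least 100, equal list sizes, no pairing, each time left out, centres within 500 bp, percentiles and a 5 kb window; tied scores at their best rank were added later. Ranking and tests were tested on simulated data. Python 3.11.15, NumPy 2.4.6, pandas 2.3.3 and matplotlib 3.10.9 were used.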

Additional observations from a re-analysis of the deposited data

Results flagged for a closer look

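In 3 of 16 groups of 6 values, 1 library stood apart from the other 5. The rule flags about 1 in 20 groups by chance where values are continuous and normally distributed. All flagged values were ranks, which stop at 1 and can tie, so that rate need not hold for them. For the NR1D1 promoter and body in U2OS-CHRONO, the rank among the shared regions was 3 at 4 h, the mean rank of 3 tied peaks, and 1 at all other times. For NR1D2 in U2OS-CHRONO it was 26 at 16 h, where the next value was 10. For the NR1D1 upstream site in U2OS it was 30 at 8 h, where the next value was 13. That last list held 337 peaks, the fewest of all, and the list of 16 h in U2OS-CHRONO held 9391, the most of all. The part of list length in these values was not tested.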

How the results depend on the processing

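Of 97 recomputed values, 85 kept their direction and their side of the threshold or moved little. Some of these could hardly change. The best peaks passed the cuts on score and list size, so their widths stayed identical there. Dropping the pairing leaves a mean difference as it was. The count is therefore no measure of robustness. Without the pairing by time (no replicate block), the NR1D1 rank difference of -2.17 gave an exact permutation p of 0.0065. Adjusted over the 6 member tests it was 0.039, the only one to pass. That setting treats the 6 times of a line as independent, though each was 1 library. The ranks still rest in part on tied scores of 3100. The share of the 167 shared regions with so small a p is not given here. No conclusion on the lines is drawn from that setting. The number of NR1D1 peaks, 0.667 higher in U2OS-CHRONO, turned to -0.5 with equal list sizes. The difference in NR1D2 peaks went from 0 to -1.33 there (exact paired permutation p = 0.25, adjusted 0.75). The NR1D2 number was then lower in U2OS-CHRONO at 4 times, higher at 1 and equal at 1. This value is counted among the 85, although a main difference of 0 has no direction to keep. As a percentile of its own list, NR1D2 stood nearer the top in U2OS-CHRONO by a difference of -0.450 percentage points (6 of 6 times, exact permutation p = 0.031, adjusted 0.094). The longer U2OS-CHRONO lists enter this measure by construction. NR1D1 moved the same way, by -0.266 (6 of 6 times, exact permutation p = 0.031, adjusted 0.094). So did the NR1D1 upstream site, by -1.58 (5 of 6 times, exact permutation p = 0.0625). The shift was thus not particular to NR1D2. With scores of at least 100, genes with a peak in all 12 BMAL1 libraries numbered 61 in place of 202, and REV-ERB partners and targets 1 in place of 3. With equal list sizes those genes numbered 125.

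With each time left out in turn, differences between U2OS-CHRONO and U2OS ran from -2.4 to -2 for the NR1D1 rank, 0.2 to 4 for the NR1D2 rank, and -4.2 to 0.6 for the upstream rank. For width they ran from -99.8 to 917.4 bp at NR1D1, -183 to 218.2 bp at NR1D2 and 266.8 to 820 bp at the upstream site. For peak number they ran from 0 to 1.6 at NR1D1 and -0.2 to 0.6 at NR1D2. With 5 pairs the smallest possible p is 0.0625, so these repeats bear on direction alone. The cause of the changes was not tested. Read depth is unknown, which limits every comparison of the lists.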
